A study of Mus musculus with 8 samples.

Results

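The cholesterol and fatty acid synthesis genes are 32 genes of the sterol and lipid supply of the cell, listed by symbol. They comprise the enzymes from acetyl-CoA to cholesterol, the proteins that control them, sterol transporters, and enzymes of fatty acid synthesis. Of the 32 genes, 30 had a probe set that names them alone, out of 12393 genes named in this way, and all 30 passed the filter on low signal. The expression of Acat2 and Insig1, which had no such probe set, was not analysed here. The 30 genes had 61 probe sets, of which 54 passed the filter, and the brightest of them, by mean log2 signal over the arrays, stands for the gene.

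The samples were mouse embryonic fibroblasts, connective tissue cells, taken at embryonic day 11 and passaged through crisis, which most cells of a primary culture do not survive. The genotypes compared were wild type (WT) and Med23-/- knockout (KO). MED23 belongs to Mediator, a large protein complex through which transcription factors on DNA act on RNA polymerase. All cells were starved for 16 h in medium with 0.5% fetal bovine serum. Starved cells were harvested at that point, and stimulated cells were harvested after a further 30 min in 20% serum. Each of the 4 groups (starved WT, stimulated WT, starved KO and stimulated KO) had 2 arrays, called 1 and 2 below, so n = 2 for every group. Whether replicates came from separate cultures is not stated in the labels, and p-values therefore cover the spread between these samples alone, which may be technical. The labels name no second line of either genotype, so the loss of MED23 and other differences between the cultures cannot be told apart.

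Cells make cholesterol from acetyl-CoA through mevalonate, isoprenoid units, squalene and lanosterol. The genes of this route are switched on together by the sterol regulatory element binding proteins (SREBPs), transcription factors made as membrane-bound precursors. SCAP carries the precursors to the Golgi, where proteases free them, and INSIG proteins hold SCAP back when sterols are plentiful. The product of Srebf2 acts mainly on cholesterol genes and that of Srebf1 mainly on fatty acid genes, often beside NF-Y, which binds CCAAT boxes, and Sp1, which binds GC boxes.

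In stimulated KO cells 7 of the 30 genes rose and 5 fell, where 8.41% of all genes tested rose and 15.2% fell. The rises were led by 3 late or transport steps of the sterol route: Cyp51 by 3.74-fold, Stard4 by 3.04-fold and Sc5d by 2.94-fold. In WT cells the same 3 genes differed from starved cells by no more than 1.26-fold, none was called, and their responses differed between the genotypes in a test of the interaction. Before serum, these 3 genes differed between genotypes by at most 1.08-fold by their brightest probe sets and were not called. A dimmer probe set of Stard4 was called as lower in KO cells (log2 -0.71, limma adjusted p = 0.0109). By contrast, 17 others of the 30, among them Idi1, Hmgcs1, Sqle, Nsdhl and Elovl6, were already higher in KO cells, as were 24.3% of all genes tested. Srebf1 was lower in KO cells in both serum states, and Srebf2 was called in none of the 5 comparisons.

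To show the regulatory sequence of the genes that rose with serum in KO cells, the 150 bases before the start site are printed for the 5 of those 7 genes whose promoter was in the table used. The sequences are RefSeq promoters in mouse build GRCm38.p6, given 5′ to 3′ on the strand of the gene. They lie at chr13:119690201-119690350 on the plus strand for Hmgcs1, chr13:8885456-8885605 on the plus strand for Idi1 and chr5:4104698-4104847 on the minus strand for Cyp51. Those of Sc5d and Hsd17b7 lie at chr9:42264301-42264450 and chr1:169969206-169969355, both on the minus strand. Capitals mark matches to TCACNCCAC, a form of the sterol regulatory element, and to CCAAT on either strand (ATTGG as printed where the box is on the other strand).
Hmgcs1: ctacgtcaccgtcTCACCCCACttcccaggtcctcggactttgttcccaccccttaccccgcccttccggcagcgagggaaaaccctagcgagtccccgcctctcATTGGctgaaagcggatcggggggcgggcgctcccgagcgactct
Idi1: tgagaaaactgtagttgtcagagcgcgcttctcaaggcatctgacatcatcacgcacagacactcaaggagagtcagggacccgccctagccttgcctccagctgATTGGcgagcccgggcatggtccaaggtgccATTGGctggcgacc
Cyp51: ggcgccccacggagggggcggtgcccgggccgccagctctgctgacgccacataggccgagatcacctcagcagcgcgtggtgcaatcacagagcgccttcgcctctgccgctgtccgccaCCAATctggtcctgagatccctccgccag
Sc5d: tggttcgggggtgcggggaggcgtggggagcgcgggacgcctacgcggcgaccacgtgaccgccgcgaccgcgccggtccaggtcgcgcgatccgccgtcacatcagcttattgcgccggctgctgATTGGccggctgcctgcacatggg
Hsd17b7: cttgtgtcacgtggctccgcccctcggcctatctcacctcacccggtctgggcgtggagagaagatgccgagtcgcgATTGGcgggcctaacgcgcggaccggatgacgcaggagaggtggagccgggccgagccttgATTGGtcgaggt

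Motifs were searched on both strands from 250 bases before to 50 bases after the start. Hmgcs1, the enzyme that makes HMG-CoA for the mevalonate route, held TCACCCCAC at position -137 from the start site and CCAAT boxes on the other strand, one of them at -45. Idi1, which isomerizes the isoprenoid unit, held CCAAT boxes at -45 and -14, and Cyp51, the lanosterol demethylase, held a CCAAT box at -29. Of the listed genes, 25 matched a promoter, Acat2 and Insig1 among them. Neither of these has an expression value here, so both are outside the groups by serum response below. Fdps, Fdft1, Sqle, Stard4, Npc1, Scd1 and Scd2 are named only. TCACNCCAC lay in 1 of those 25, Hmgcs1, against 1.24% of all 32851 promoters of the same length. CCAAT lay in 20 of 25, against 37.4% of all promoters, and the GC box GGGCGG in 21 of 25, against 35.7%. A gene with several start sites was counted if any of its promoters held the motif, while the shares over all promoters count each promoter once. CCAAT was in all 5 promoters of genes that rose with serum in KO cells, in 4 of 5 of those that fell and in 10 of 13 of those not called. A match describes the letters and was not tested as a binding site.

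The labels were checked on 2 genes. Med23 read 4901, 5410, 3595 and 3577 on the WT arrays and between 28.0 and 132.5 on the KO arrays, and Egr1, an immediate early gene that serum switches on, read 1336 to 7545 on starved and 39301 to 44251 on stimulated arrays. The arrays had trimmed mean signals of 2500.6 to 2500.8 and correlated at 0.976 to 0.984 within a group, 0.930 to 0.962 across serum states of one genotype and 0.750 to 0.805 across genotypes. The ratio of 3′ to 5′ control probe sets, a measure of RNA integrity, was 1.03 to 1.07 for Actb and 0.77 to 0.84 for Gapdh. For Tfrc it was 1.89 to 4.23, highest on starved WT array 1 and lowest on starved KO array 2. Among 9 fibroblast markers, 7 lay at or above the 40th percentile on all 8 arrays, Thy1 lay below it on all 8, and Pdgfra read 13.3 to 129.2 on WT arrays (below the 40th percentile) against 6040 to 15782 on KO arrays. The summed signal of those 9 markers was 116520 to 136071 on WT and 246243 to 324658 on KO arrays. Bright genes weigh most in that sum, among them Col1a2, at 62376 to 91077 on KO arrays. Dcn went the other way, lower in KO cells by log2 differences of -1.13 when starved and -0.86 when stimulated (limma adjusted p = 0.00548 and 0.0212). WT array 1 and WT array 2 stood apart in both serum states for Col1a2, a collagen gene, which read 581.4 and 742.9 on WT arrays 1 and 8871 and 9443 on WT arrays 2. Among the 30 lipid genes, Abca1 and Fdps differed between WT arrays 1 and 2 by over 0.5 on the log2 scale in the same direction in both serum states, and none did so in KO cells. Of the epithelial, endothelial, blood and muscle markers, 4 of 5, 3 of 4, 2 of 4 and 2 of 3 lay below the 40th percentile on all 8 arrays, among them Cdh1, Cdh5, Ptprc and Myod1. Csf1r, a blood marker, lay at or above it on all 8, at 656.2 to 1082, and Krt8, Kdr, Des and Cd68 did so on some arrays.

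The first comparison asked how the genes respond to 30 min of serum in cells without MED23. In KO cells, 7 of the 30 genes rose and 5 fell at a limma adjusted p under 0.05, where 8.41% of all 8453 genes tested rose and 15.2% fell. The 7 that rose (23.3% of the 30) were all sterol genes: Hmgcs1 and Idi1 of the mevalonate branch, Sqle, Cyp51, Sc5d and Hsd17b7 of the steps after squalene, and the sterol carrier Stard4. The 5 that fell (16.7%) were Mvk, Insig2, Srebf1, Scap and Npc2. None of the 6 fatty acid genes was called in either direction by its brightest probe set, though dimmer probe sets of Scd2 fell, as given below. The median log2 difference of the 30 genes was -0.13, beside -0.16 over all genes tested.

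Cyp51, the demethylase that acts on lanosterol, read 4089 and 5852 on the starved KO arrays and 18673 and 18056 on the stimulated ones. On the WT arrays it read 4040 and 5917 when starved and 5720 and 6598 when stimulated, so only the stimulated KO arrays stood clear of the rest. The KO response was 1.90 on the log2 scale (SE 0.201, limma adjusted p = 0.000157).

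Sc5d encodes the desaturase near the end of cholesterol synthesis. It read 4761 and 5318 on starved and 14697 and 14927 on stimulated KO arrays, a log2 rise of 1.55 (SE 0.119, limma adjusted p = 1.86e-05). Its WT arrays read 4342 and 5038 when starved and 5241 and 4959 when stimulated, within the range of the starved KO arrays apart from the lowest. Stard4, a soluble carrier that moves sterol between membranes, read 4071 and 4776 on starved and 13588 and 13253 on stimulated KO arrays (log2 1.60, SE 0.137, limma adjusted p = 4.15e-05). Its 4 WT arrays lay between 3700 and 5021. For both genes the stimulated KO arrays were the highest of the 8 and did not overlap any other.

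Hsd17b7, a ketoreductase of the sterol route, was the single gene of the 30 called with serum in both genotypes. It read 2772 and 2492 on starved and 6627 and 6327 on stimulated KO arrays, a rise of 1.30 on the log2 scale (SE 0.134, limma adjusted p = 0.000136). Idi1 read 9425 and 13459 on starved and 24680 and 24636 on stimulated KO arrays, a rise of 1.13 (SE 0.155, limma adjusted p = 0.000854). The starved KO arrays of Idi1 were already above all 4 WT arrays, which lay between 5149 and 6691. These 5 rises, Cyp51, Sc5d, Stard4, Hsd17b7 and Idi1, were each over 2-fold, the study's own size of effect. Their arrays also did not overlap, a condition added here. Both conditions were passed by 6.64% of all genes tested in KO cells, rises and falls together.

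Hmgcs1 and Sqle rose less. Hmgcs1 read 27325 and 35364 on starved and 54827 and 53905 on stimulated KO arrays (log2 0.81, SE 0.183, limma adjusted p = 0.0115). Sqle, the epoxidase that acts on squalene, read 15304 and 12690 and then 21232 and 22256 (log2 0.64, SE 0.154, limma adjusted p = 0.0153). The call of Hmgcs1 was lost without starved KO array 1 or either stimulated KO array, and that of Sqle without starved KO array 2 or either stimulated KO array, with adjusted p up to 0.0716 and 0.0884. Of the other genes of these branches, Mvk fell, as described below, and the rest did not pass: Fdft1 had a log2 difference of 0.25, Pmvk 0.46, Fdps -0.01 and Mvd -0.13, and Nsdhl, Lss, Ebp, Dhcr7 and Tm7sf2 lay between -0.35 and -0.13.

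**Figure D1:**
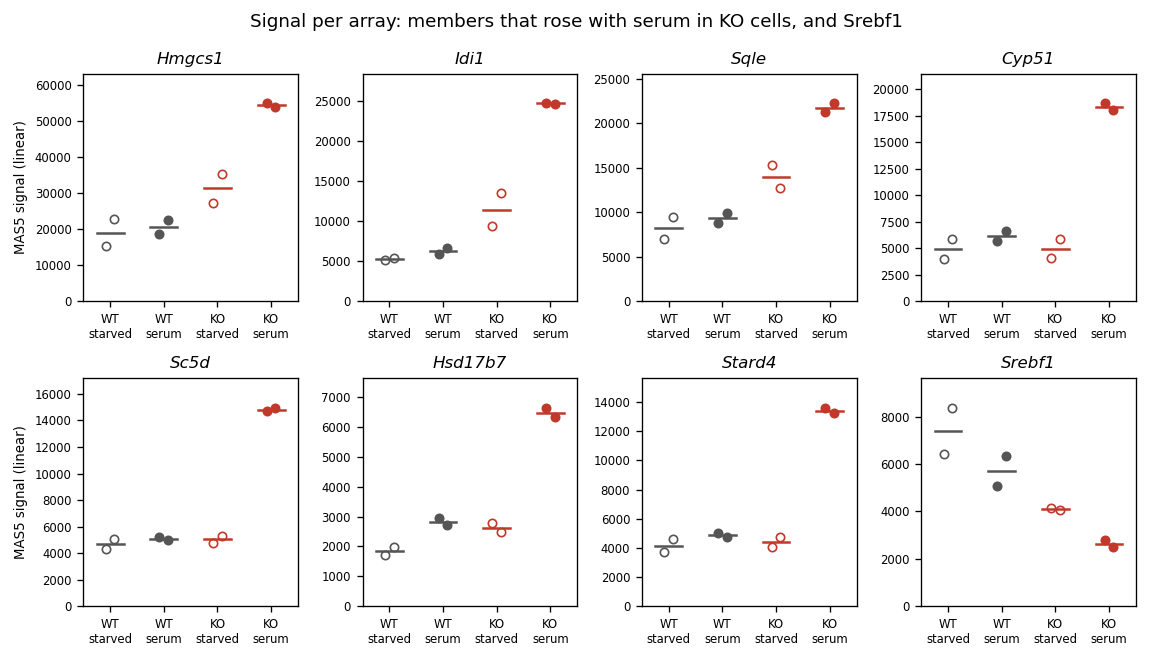
MAS5 signal per array on a linear axis from 0 for the 7 genes that rose with serum in KO cells and for Srebf1, with 2 arrays (circles, open when starved and filled when stimulated) and their mean (bar) in each of the 4 groups, WT in grey and KO in red. For Cyp51, Sc5d and Stard4 the stimulated KO arrays (13253 to 18673) lie above all other arrays of the gene, while Srebf1 is lowest there (2495 and 2788).

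Of the 4 genes that control SREBP, 3 were called as falling with serum in KO cells, where 15.2% of all genes tested fell. Centring each array on its median ended the calls of Srebf1 and Scap, and the other 2 probe sets of Insig2, at -0.14 and 0.26, were not called. Srebf1 read 4157 and 4041 on starved and 2788 and 2495 on stimulated KO arrays, a fall with a log2 difference of -0.63 (SE 0.159, limma adjusted p = 0.0183). Scap, the escort of the SREBP precursors, read 10012 and 9484 and then 7173 and 6295 (log2 -0.54, SE 0.133, limma adjusted p = 0.0176). Insig2, which retains SCAP in the endoplasmic reticulum, read 3985 and 4115 and then 2567 and 2704 (log2 -0.62, SE 0.124, limma adjusted p = 0.00649). In WT cells the log2 differences were -0.37 for Srebf1, -0.36 for Insig2 and -0.08 for Scap, none of them called, and none of the 3 interactions passed the test (limma adjusted p = 0.574, 0.477 and 0.226). Srebf2 read 7865 and 8621 on starved and 9178 and 10009 on stimulated KO arrays and was not called (log2 0.22, SE 0.166, limma adjusted p = 0.374). Its starved and stimulated KO arrays did not overlap, as held for 63% of all genes tested.

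Mvk, the kinase of mevalonate, read 1865 and 1843 on starved and 1230 and 1098 on stimulated KO arrays (log2 -0.67, SE 0.156, limma adjusted p = 0.0135). Npc2, a lysosomal cholesterol carrier, had a log2 difference of -0.35 (SE 0.0966, limma adjusted p = 0.0256). The 5 falls depended on the scaling: with each array centred on its median, which moved the median of all genes from -0.16 to 0.00 and that of the 30 genes from -0.13 to 0.027, Insig2 alone was still called as falling, while 10 of the 30 were called as rising. The split over all genes tested moved with it, from 35.6% of calls rising with the deposited scaling to 62.2%. The call of Srebf1 was also lost without any one of the 4 KO arrays, that of Scap without starved KO array 1 or stimulated KO array 2, that of Mvk without stimulated KO array 2, that of Insig2 without stimulated KO array 1 and that of Npc2 without starved KO array 2 or either stimulated one. Over all alternatives the highest adjusted p of each lay between 0.0557 and 0.222.

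Among the fatty acid genes, Fasn, the fatty acid synthase, read 10687 and 9235 on starved and 13039 and 12175 on stimulated KO arrays. It missed the threshold (log2 0.34, SE 0.112, limma adjusted p = 0.0518). Its starved and stimulated KO arrays did not overlap, as held for 63% of all genes tested. Acly, Acaca, Elovl6, Scd1 and Scd2 had log2 differences between -0.33 and -0.02 in KO cells by their brightest probe sets. The dimmer probe sets of Scd2 were called as falling, at -0.47 (limma adjusted p = 0.0389) and -0.75 (limma adjusted p = 0.0113). Abca1 and Npc1, which export sterol from the cell and from lysosomes, had differences of -0.14 and -0.22, neither called.

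The second comparison was the response to serum in WT cells, which was small for nearly all of these genes. Hsd17b7 rose, from 1707 and 1989 on the starved to 2935 and 2719 on the stimulated arrays (log2 0.61, SE 0.134, limma adjusted p = 0.0318), which is 1 of 30 genes (3.33%) beside 2.76% of all genes tested. No gene of the 30 was called as falling by limma, beside 1.99% of all genes tested. At an unadjusted p under 0.05 the limma counts were 1 rising and 4 falling, a looser threshold at which the share of all genes was not counted. The 30 log2 differences lay between -0.42 (Ebp, a sterol isomerase) and 0.61, with a median of -0.04 beside -0.06 over all genes. None was over 2-fold with arrays apart, where 3.09% of all genes tested were. The call of Hsd17b7 was lost when any WT array or either stimulated KO array was left out, with adjusted p up to 0.182 over all alternatives, and its second probe set had a log2 difference of 0.08 in WT cells.

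**Figure D2:**
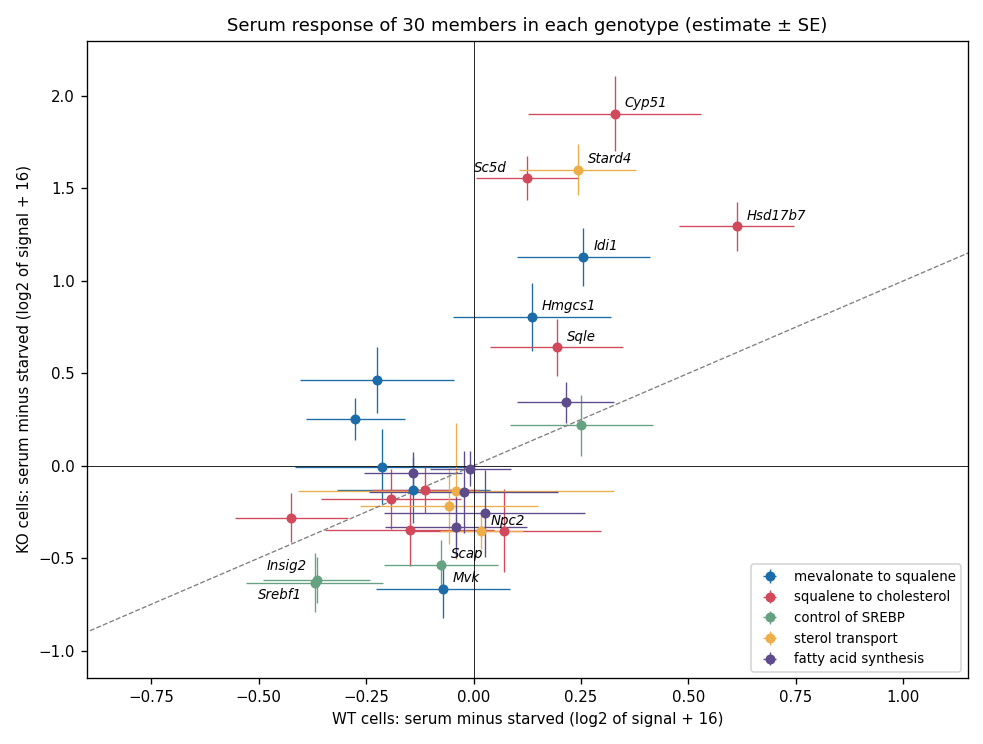
Log2 difference of stimulated and starved cells (signal plus 16) in WT cells (horizontal axis) and in KO cells (vertical axis) for the 30 genes, coloured by role, with bars of 1 SE and the dashed line marking equal responses. Cyp51, Stard4 and Sc5d lie farthest above the line (1.90, 1.60 and 1.55 in KO cells against 0.33, 0.24 and 0.12 in WT cells), and Srebf1 and Insig2 lie below 0 on both axes.

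The interaction, the KO response minus the WT response, tested directly whether the response differed. It was positive and called for 3 of the 30 genes (10%), Cyp51, Sc5d and Stard4, where 1.56% of all genes tested responded more in KO cells. It was called as negative for none, beside 1.16% of all genes tested. At an unadjusted p under 0.05 the limma counts were 8 positive and 3 negative. The share of all genes at that looser threshold was not counted, so these counts cannot be set against the 1.56% and 1.16%. Sc5d responded more by 1.43 on the log2 scale (SE 0.169, limma adjusted p = 0.00287), Stard4 by 1.36 (SE 0.194, limma adjusted p = 0.00572) and Cyp51 by 1.58 (SE 0.284, limma adjusted p = 0.0206). The calls of Sc5d and Stard4 held when any single array was left out. That of Cyp51 was lost without starved WT array 2, either stimulated WT array or either stimulated KO array (adjusted p up to 0.0924 over all alternatives), and its other 2 probe sets gave 1.94 and 2.24 (limma adjusted p = 0.0089 and 0.0143). The interaction was 0.87 for Idi1 (limma adjusted p = 0.0699), 0.68 for Hsd17b7 (0.0901), 0.67 for Hmgcs1 (0.201) and 0.45 for Sqle (0.303), so for these 4 rises a difference between the genotypes did not pass the test. By role, the median interaction was 0.53 for the 7 mevalonate genes, 0.14 for the 9 genes after squalene, -0.26 for the 4 SREBP control genes, -0.13 for the 4 transport genes and -0.06 for the 6 fatty acid genes, beside -0.08 over all genes tested.

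The third comparison set starved KO cells against starved WT cells. Of the 30 genes, 17 were higher in KO cells (56.7%) and 2 were lower (6.67%), where 24.3% of all genes tested were higher and 25.2% lower. The median log2 difference was 0.46 for the 30 genes, 25 of them above 0, and 0.00 over all genes tested. The starved KO arrays also enter the serum response in KO cells and the interaction, so these comparisons are not independent. By role, 5 of 7 mevalonate genes, 6 of 9 genes after squalene, 2 of 4 SREBP control genes, 2 of 4 transport genes and 2 of 6 fatty acid genes were higher.

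Elovl6, which lengthens the products of fatty acid synthase, had the largest difference of the 30. It read 1784 and 2844 on starved WT arrays and 11935 and 9548 on starved KO arrays (log2 2.24, SE 0.220, limma adjusted p = 2.45e-05). Abca1, the exporter of cellular cholesterol, read 1067 and 635.8 on WT arrays and 2750 and 3035 on KO arrays (log2 1.79, SE 0.368, limma adjusted p = 0.00271). Idi1, whose array values are given above, was higher by 1.10 (SE 0.155, limma adjusted p = 0.000274). No WT array overlapped a KO array for these 3 genes, which were the ones over 2-fold, beside 20.1% of all genes tested that were over 2-fold with arrays apart.

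The sterol enzymes that differed before serum did so by smaller steps. Dhcr7, which makes cholesterol in the final reduction, read 1240 and 1125 on WT and 1994 and 2697 on KO arrays (log2 0.96, SE 0.197, limma adjusted p = 0.00262). Mvd, the decarboxylase of the mevalonate branch, read 1397 and 1675 on WT and 2496 and 3489 on KO arrays (log2 0.94, SE 0.178, limma adjusted p = 0.00166). Nsdhl, a sterol dehydrogenase, read 3552 and 4133 on WT and 6941 and 6894 on KO arrays (log2 0.85, SE 0.124, limma adjusted p = 0.000329). Tm7sf2, a sterol reductase, read 631.9 and 884.5 on WT and 1250 and 1545 on KO arrays (log2 0.88, SE 0.226, limma adjusted p = 0.00924). All 4 had every KO array above every WT array. Starved arrays of the genotypes did not overlap, in either direction, for 75% of all genes tested. Sqle, Hmgcs1, Fdft1, Hsd17b7, Mvk and Lss were higher by between 0.43 and 0.77, and the calls of Hmgcs1, Hsd17b7, Tm7sf2, Mvk and Lss were each lost when starved WT array 1 was left out, and also when at least 1 other array was. Without starved WT array 1 the count of higher genes was 11 of 30 instead of 17.

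Cyp51, Sc5d and Stard4, the genes with the called interaction, had starved differences of 0.00 (SE 0.201), 0.11 (SE 0.119) and 0.09 (SE 0.137) on the log2 scale, none of them called. A second probe set of Stard4 gave -0.71 (limma adjusted p = 0.0109). The other probe sets of Cyp51 gave 0.33 and -0.38, neither called. Scap read 5472 and 4805 on starved WT and 10012 and 9484 on starved KO arrays, higher by 0.92 (SE 0.133, limma adjusted p = 0.00031), and Insig2 was higher by 0.46 (limma adjusted p = 0.0115), a call lost without starved WT array 2 (0.0605). Srebf1 was lower in KO cells: it read 6437 and 8360 on WT against 4157 and 4041 on KO arrays (log2 -0.84, SE 0.159, limma adjusted p = 0.00168). Scd2, a stearoyl-CoA desaturase, was lower by a log2 difference of -0.62 (limma adjusted p = 0.00139), and its dimmer probe sets gave -0.82 and -1.18, both called. Its relative Scd1 was higher by 0.60 (limma adjusted p = 0.0133), a call lost without starved WT array 1 or starved KO array 2. The second probe set of Scd1 did not share that call (0.00, limma adjusted p = 0.999). Npc2 was higher by 0.53 (limma adjusted p = 0.00128), which quantile normalization moved to 0.12 (0.157).

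**Figure D3:**
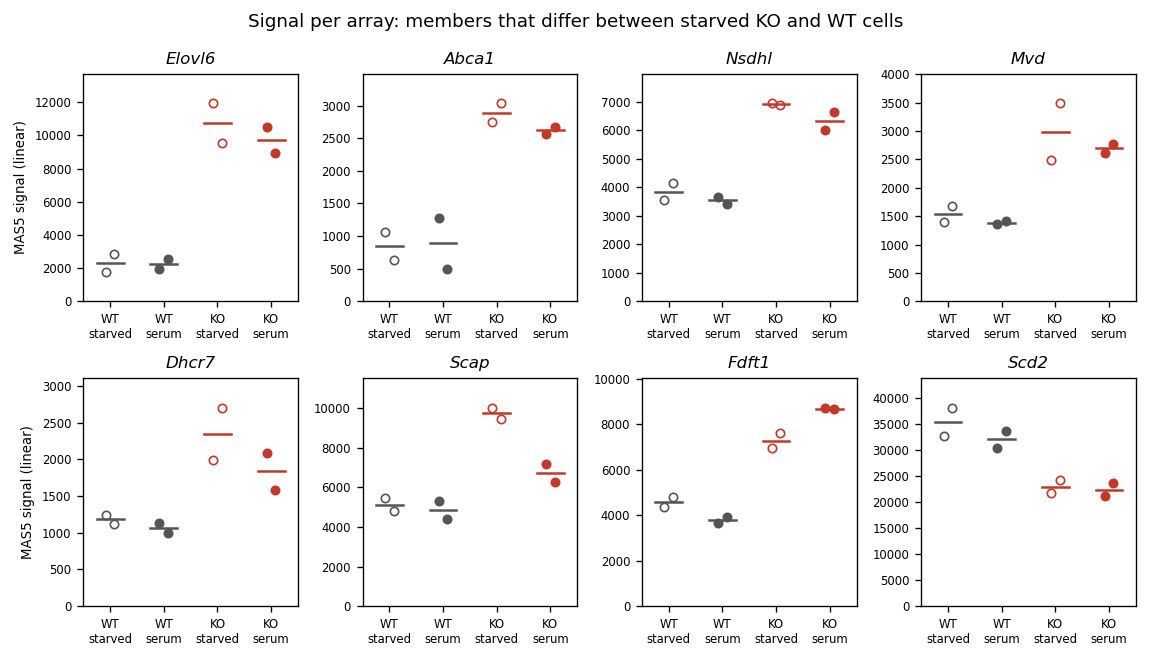
MAS5 signal per array on a linear axis from 0 for 8 genes called between starved KO and starved WT cells, with 2 arrays (circles, open when starved and filled when stimulated) and their mean (bar) in each group, WT in grey and KO in red. Elovl6 reads 8925 to 11935 on the KO arrays against 1784 to 2844 on the WT arrays, Scap lies nearer the WT arrays after serum, and Scd2 is lower on all KO arrays (21136 to 24217) than on all WT arrays (30402 to 38026).

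The fourth comparison set stimulated KO cells against stimulated WT cells. Of the 30 genes, 17 were higher (56.7%) and 4 were lower (13.3%), where 23.1% of all genes tested were higher and 28.5% lower. With each array centred on its median, 22 of the 30 were higher and the share of calls that were higher moved from 44.7% to 58.8% over all genes tested. The median log2 difference was 0.55 for the 30 genes and -0.08 over all genes. On 28 of the 30 the arrays of the genotypes did not overlap, beside 78.8% of all genes tested.

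The mevalonate and late sterol genes made up 13 of the 17. Idi1 was higher in stimulated KO cells by 3.93-fold (log2 1.97, SE 0.155, limma adjusted p = 5.65e-06), with 24680 and 24636 against 5868 and 6691. Hmgcs1 read 54827 and 53905 against 18665 and 22512 (log2 1.41, SE 0.183, limma adjusted p = 0.000154), and Sqle 21232 and 22256 against 8780 and 9947 (log2 1.22, SE 0.154, limma adjusted p = 0.000134). Cyp51, Sc5d and Stard4 were higher by 1.58, 1.54 and 1.45 on the log2 scale, with limma adjusted p of 0.000137, 5.18e-06 and 1.89e-05. Fdft1, which makes squalene, had passed neither serum test but read 8702 and 8644 against 3637 and 3925 (log2 1.20, SE 0.114, limma adjusted p = 2.06e-05). Hsd17b7, Mvd, Nsdhl, Dhcr7, Pmvk, Fdps and Lss were higher by between 0.44 and 1.19. Of these, the call of Pmvk was lost without stimulated WT array 2, that of Fdps without stimulated WT array 1 or stimulated KO array 2, that of Dhcr7 without stimulated WT array 2 or stimulated KO array 1, and that of Lss without stimulated WT array 1 or either stimulated KO array.

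Outside the synthesis of sterol, Elovl6 read 10481 and 8925 on stimulated KO against 1947 and 2526 on stimulated WT arrays (log2 2.12, SE 0.220, limma adjusted p = 3.57e-05). Abca1 read 2571 and 2673 against 1281 and 498.9 (log2 1.69, SE 0.368, limma adjusted p = 0.00356), with the WT arrays far from each other. Srebf1 was lower, with 2788 and 2495 against 5067 and 6351 (log2 -1.10, SE 0.159, limma adjusted p = 0.000303). Scap was higher by 0.46 (limma adjusted p = 0.0152), a call lost without stimulated WT array 2 or stimulated KO array 1. Scd2, Acaca and Npc1 were lower by log2 differences of -0.52, -0.78 and -0.58 (limma adjusted p = 0.00382, 0.0192 and 0.0409). The dimmer probe sets of Scd2 were lower by larger differences, -1.17 and -1.80 (limma adjusted p = 9.81e-05 and 1.89e-05). The call of Npc1 was lost without any one of the 4 stimulated arrays and that of Acaca, the acetyl-CoA carboxylase, without stimulated WT array 2 or stimulated KO array 1, and quantile normalization ended both calls. By their brightest probe sets, 11 of the 30 differed by over 2-fold with arrays apart, beside 20.8% of all genes tested.

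Of the markers of fat cells, only Cebpa and Lpl passed the filter on low signal, and both read higher on KO arrays. Of 7 adipocyte markers, Adipoq, Cd36, Fabp4, Lep and Pparg lay below the 40th percentile on all 8 arrays, and none of the 7 lay above it on all 8. Their summed signal was 971 to 1341 on WT and 3920 to 6603 on KO arrays, made up mostly of Cebpa, a transcription factor, at 425.0 to 706.7 against 2125 to 4244, and Lpl, a lipase, at 126.5 to 247.1 against 880.8 to 2136. Pparg went the other way at low signal, with 33.9 to 122.4 on WT and 14.4 to 31.7 on KO arrays. Neural markers, chiefly Nes, summed to 3786 to 7037 on WT and 523.0 to 588.0 on KO arrays. In RNA from whole cultures, more cells of a type and more RNA per cell cannot be told apart, and the part of these markers in the differences between genotypes was not tested.

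**Figure D4:**
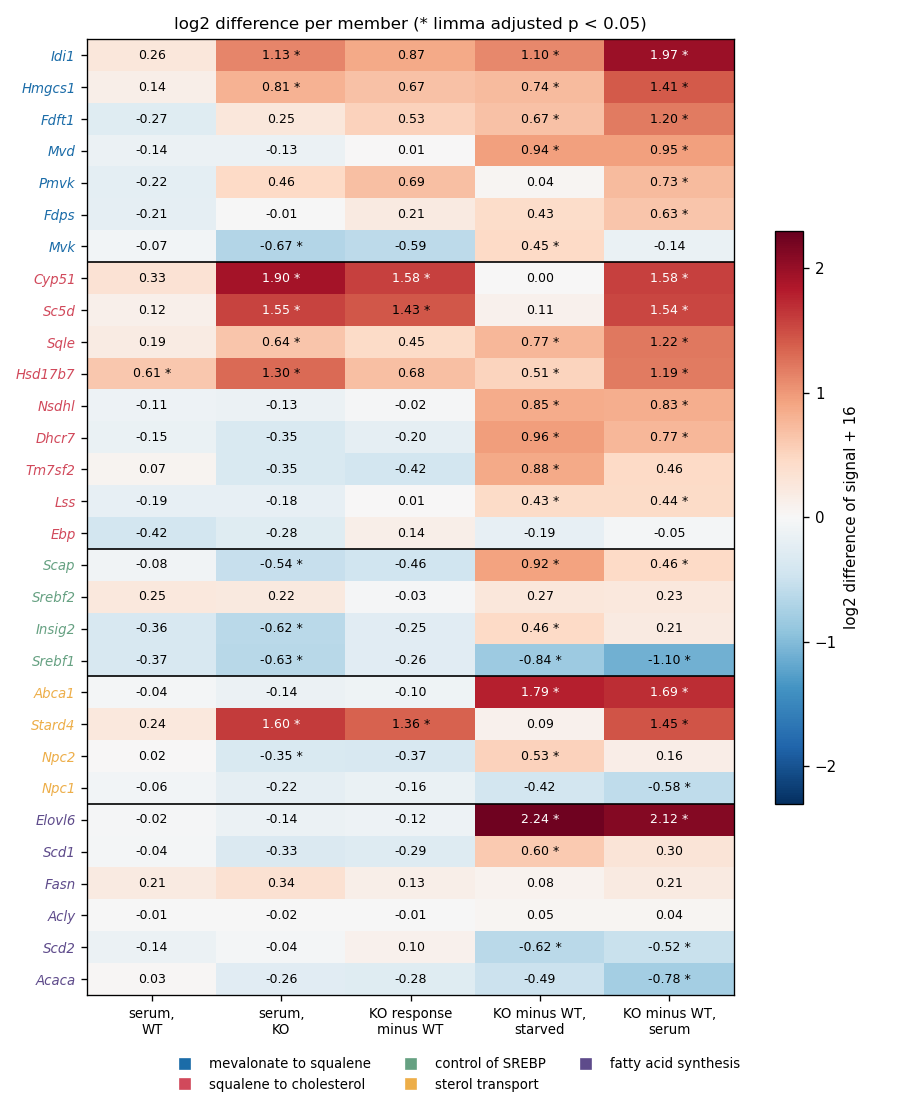
Log2 difference (signal plus 16) of each of the 30 genes in the 5 comparisons, red for positive and blue for negative, grouped by role with gene names in the colour of the role, and with a star where the limma adjusted p is under 0.05. The 2 columns on the right hold most of the stars, and the 3 stars of the middle column, the KO response minus the WT response, are on Cyp51, Sc5d and Stard4.

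Probe sets of the same gene gave a further look at the calls, since 18 of the 30 genes had more than 1 that passed the filter. For serum in KO cells, all probe sets of a gene had the same direction in 13 of the 18 and the same call in 15, the exceptions in call being Mvk, Insig2 and Scd2. The other probe sets of Cyp51 rose by 2.24 and 2.35, those of Hmgcs1 by 0.76, 1.41 and 1.02, and the second ones of Stard4, Idi1, Hsd17b7 and Sc5d by 1.90, 1.32, 1.16 and 0.90 on the log2 scale. The fall of Insig2 was not shared: its other 2 probe sets had differences of -0.14 and 0.26, neither called. For the interaction, the second probe set of Sc5d gave 1.17 (limma adjusted p = 0.0526) and that of Stard4 gave 2.00 (0.00471). One of the other probe sets of Hmgcs1 gave 1.25 (limma adjusted p = 0.00471) and that of Hsd17b7 gave 1.08 (0.0408), where the probe sets with the higher signal were not called. For starved KO against starved WT cells the probe sets had the same call in 11 of 18 genes, the fewest of the 5 comparisons. The exceptions were Hmgcs1, Mvk, Hsd17b7, Lss, Insig2, Stard4 and Scd1. Second probe sets of Hsd17b7 and Mvk, both at 0.22, were not called (limma adjusted p = 0.293 and 0.417). One of Hmgcs1, at 0.08, was not called (limma adjusted p = 0.742), while its remaining ones were called as higher. For stimulated KO against stimulated WT cells the exceptions in call were Insig2, Abca1 and Acly. The brightest probe set of Insig2, at 0.21, was not called, while its others were higher by 0.73 and 1.04 (limma adjusted p = 0.00159 and 0.00281). The second of Abca1, at 0.81, was not called (limma adjusted p = 0.0822), and a dimmer one of Acly was higher by 0.37 (0.013).

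**Figure D5:**
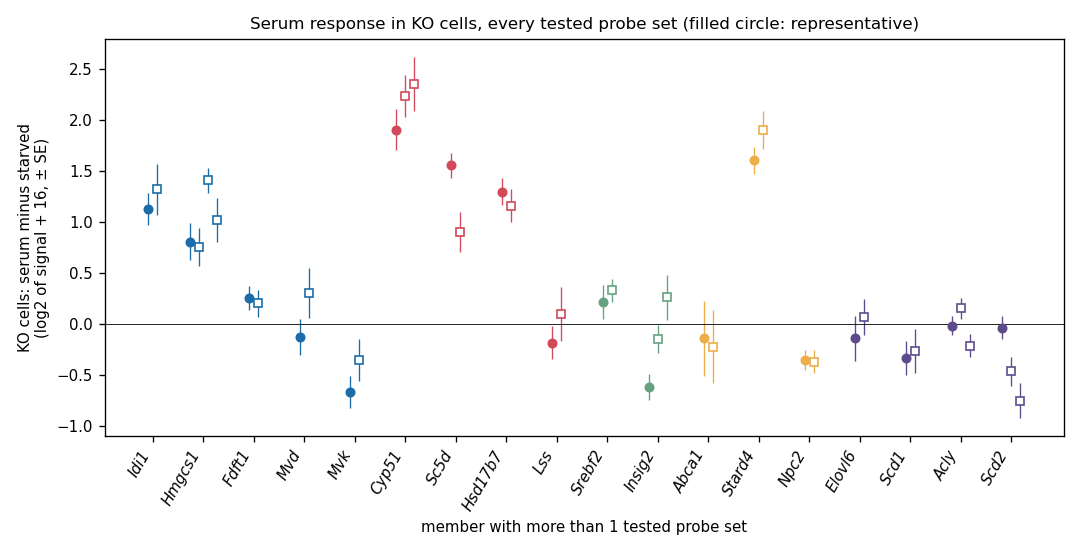
Log2 difference of stimulated and starved KO cells (signal plus 16, bars of 1 SE) for every probe set that passed the filter of the 18 genes with more than 1, filled circles for the probe set with the highest signal and open squares for the others, coloured by role. All probe sets of Idi1, Hmgcs1, Cyp51, Sc5d, Hsd17b7 and Stard4 lie between 0.76 and 2.35, whereas those of Insig2 lie on both sides of 0.

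Other genes of the same pathways, from a list of 26, had a probe set for 17 and passed the filter for 16. With serum in KO cells, 2 of the 16 rose (12.5%) and 6 fell (37.5%), where 8.41% of all genes tested rose and 15.2% fell. Elovl5, an elongase of polyunsaturated fatty acids, read 8521 and 8352 on starved and 16522 and 15771 on stimulated KO arrays (log2 0.93, SE 0.112, limma adjusted p = 0.00034), and its interaction was called (log2 0.97, limma adjusted p = 0.0128). Msmo1, the sterol methyl oxidase that acts after Cyp51, read 20363 and 12279 on starved and 37089 and 39239 on stimulated KO arrays (log2 1.27, SE 0.332, limma adjusted p = 0.0215). The interaction of Msmo1 was 1.48 (SE 0.469) and was not called (limma adjusted p = 0.133), and its starved WT arrays were far apart, at 6485 and 13602. Mbtps1, the protease that first cuts the SREBP precursors, fell (log2 -0.69, limma adjusted p = 0.00127), as did Mid1ip1, a regulator of acetyl-CoA carboxylase (log2 -0.87, 0.00817). In WT cells limma called none of the 16 in either direction, where 2.76% of all genes tested rose and 1.99% fell. At an unadjusted p under 0.05 the limma counts were 1 rising and 2 falling, without a share of all genes to set beside them.

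In the comparison of genotypes, 7 of the 16 were higher (43.8%) and 3 lower (18.8%) in starved KO cells, where 24.3% of all genes tested were higher and 25.2% lower. In stimulated KO cells 8 were higher (50%) and 4 lower (25%), beside 23.1% and 28.5% of all genes tested. Mylip, the ligase that marks the LDL receptor for degradation, read 1408 and 1010 on starved WT and 14374 and 14422 on starved KO arrays (log2 3.58, SE 0.191, limma adjusted p = 4.38e-07). Scarb1, a lipoprotein receptor, was lower in KO cells by log2 differences of -1.47 when starved and -1.69 when stimulated, and Mid1ip1 by -1.59 and -2.28, all called by limma. Acat1, a thiolase, was higher in starved KO cells by 0.92 (SE 0.111, limma adjusted p = 9.32e-05).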

How the data were processed

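Each of 8 RNA samples, purified with Trizol and columns and biotin-labelled according to the labels, was run on 1 array. The authors deposited 1 intensity for every probe set, on a linear scale. MAS5 is the tool named, per the submitters' processing notes, with no version, and detection calls were not used here. Since this method takes off mismatch signal, dim values are noisy, and the number of arrays limits the precision.

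Of 22690 probe sets, 64 controls were left out, and 14947 of 22626 lay at or above their array's 40th percentile on at least 2 arrays and were tested. Probe sets were named through the platform's annotation, which can be old: 20380 name 1 gene, 691 several and 1555 none. Signals were analysed as log2 of signal plus 16 with limma 3.58.1 (R 4.3.3), fitting 4 group means to all 8 arrays with eBayes and a mean-variance trend. Tests were two-sided, and p-values were adjusted by Benjamini-Hochberg over all 14947 probe sets. A call was an adjusted p under 0.05, and the fit had 4 residual and 6.07 prior degrees of freedom. An exact permutation test of 2 arrays against 2 cannot give a p under 0.333. The share of all genes called counts each gene once, by its brightest probe set. Fold changes are on the scale of signal plus 16.

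The genes and lists were chosen with earlier results of these data known. Array values are given for up to 8 called genes with the largest difference in each comparison, and of the other pathway genes up to 4 with the smallest p. The SREBP control genes, Fdft1, Fasn and the further genes with array values were added after their values were seen. The procedure was also run on simulated data with independent normal errors and changes planted in stimulated KO cells alone. Those data held no shift in scaling and no effect shared by arrays, so the run cannot show how either affects the calls. The alternatives were other pseudocounts, quantile normalization or median centring, no filter or a 60th percentile filter, no trend, no suffixed probe sets, the set number as a block and leaving out each array. A block within each genotype was added after seeing the data.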

Additional observations from a re-analysis of the deposited data

Results flagged for a closer look

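The serum response differed between the genotypes, in a test of the interaction itself, for 3 of the 30 genes. The KO response exceeded the WT response by 1.58 on the log2 scale for Cyp51 (limma adjusted p = 0.0206), by 1.43 for Sc5d (0.00287) and by 1.36 for Stard4 (0.00572). The call of Cyp51 was lost without the mean-variance trend and when some single arrays were left out. A second probe set of Sc5d was not called (limma adjusted p = 0.0526). No group had enough arrays for a test of single outlying arrays.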

How the results depend on the processing

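No called difference of the 30 genes changed sign under any alternative: 974 re-estimates kept the call and 83 lost it. Falling genes in stimulated KO cells went from 5 to 1 with median centring and ranged from 1 to 5 when single arrays were left out, and the rising gene in WT cells went from 1 to 0 without the mean-variance trend and ranged from 0 to 1. Genes higher in starved KO cells ranged from 11 to 17 without single arrays. Genes lower in stimulated KO cells went from 4 to 2 with quantile normalization. They also went to 2 with the 60th percentile filter, because Acaca and Npc1 did not pass that filter and were not tested. Genes lower in starved KO cells went from 2 to 1 without suffixed probe sets, because Srebf1 has only a suffixed probe set and was not tested there. The median serum response in KO cells moved from -0.13 to 0.027 with median centring. The median difference of stimulated KO and WT cells moved from 0.55 to 0.71 with median centring. It was 0.73 with the 60th percentile filter and 0.70 without suffixed probe sets, over the 27 and 28 genes tested there. Over all genes, median centring also moved the share of interaction calls that were positive from 57.4% to 73%. With the set number as a replicate block, 4 genes had a called positive interaction and 18 were higher in starved KO cells. The labels do not say that set numbers pair the samples: across genes, the differences of arrays 2 and 1 correlated at 0.214 between the WT groups and at -0.0343 to 0.097 between the other groups, and over the 30 genes at 0.668 in WT and 0.0481 in KO cells. A replicate block within each genotype, added after seeing the data, gave 8 rising genes in KO cells and 4 positive interactions. Depth is not defined for arrays, and differences near the 40th percentile of 412.6 to 497.4 are the least certain. Apart from the genes that were not tested under a setting, the cause of these changes was not tested.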
